A study of Mus musculus with 6 samples.

Results

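Endothelial cells line blood vessels, the endocardium and lymphatics, and they travel with heart muscle cells when a newborn heart is dissociated. The genes described here are 36 that are widely used to recognise endothelium or that act in it: adhesion and junction proteins, the angiopoietin and Tie receptor system, transcription factors, sprouting genes, and genes of vascular signalling and lipid transport. They were found by symbol among the 32245 gene symbols of the count files, with a minimum of 10 counts summed over the 6 libraries. All 36 met that minimum. The lowest total was 28 counts, for Gpihbp1, and no listed gene lay under 10 counts.

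The cells were wild-type primary cardiomyocytes from the hearts of newborn mice, and polyadenylated RNA was sequenced from 3 groups of 2 libraries. The groups were BMP2 together with dorsomorphin (BMP2+DM), BMP2 alone (BMP2), and phosphate-buffered saline (PBS). The sources used here state no dose, duration or exact age, no group received dorsomorphin alone, and nothing says whether the 2 libraries of a group came from separate cultures or animals. P-values therefore measure only the spread between these samples, which may be technical.

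BMP2 is a secreted ligand that binds BMP receptors and activates SMAD transcription factors. Endothelial cells respond strongly to this ligand family, through the receptor ALK1 and the co-receptor endoglin, which most often carry BMP9 and BMP10. Dorsomorphin blocks BMP type I receptor kinases and also AMP-activated protein kinase, and it is reported to inhibit the VEGF receptor KDR. Angiopoietins signal through the receptor Tek, which the phosphatase Ptprb opposes, and ETS factors (Erg, Fli1) and SOXF factors (Sox7, Sox17, Sox18) keep the endothelial programme on.

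Gene counts per library were between 10106667 and 14366042. Levels are given as CPM, which is counts scaled to one common library total after TMM adjustment. Cardiomyocyte markers summed to between 27868 and 36354 CPM over 12 genes, and fibroblast markers to between 10799 and 12538 CPM over 12 genes. The 36 endothelial genes summed to 821 and 841 CPM with BMP2+DM, 1085 and 1098 CPM with BMP2, and 1180 and 1169 CPM with PBS. The defining endothelial genes Pecam1 and Cdh5 were read in every library, while the capillary genes Cldn5 and Gpihbp1 and the apelin receptor gene Aplnr averaged at most 1.81 CPM in any group. The lymphatic markers Lyve1, Reln and Mmrn1 did not exceed 1.07 CPM in any library, and Ccl21a was at 0 in all of them. Ribosomal-repeat models took 2.10% of gene counts in BMP2 1 and 1.31% in PBS 1, against at most 0.0928% in the others, so the main counts are also given without those libraries.

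The promoters of 4 members are shown because their genes moved in different ways: Esm1 and Emcn were lower in every comparison, Eng was lower with dorsomorphin, and Apln was higher with BMP2. Each is the 250 bases before the transcription start in RefSeq's GRCm38.p6 table, read 5′ to 3′ on the gene's strand. Capitals mark GGAAG (the ETS core), ACAAT (a SOX core) or their reverse complements. The positions are chr13:113209409-113209658 on the plus strand for Esm1, chr3:137340828-137341077 on the plus strand for Emcn, chr2:32646345-32646594 on the plus strand for Eng, and chrX:48034854-48035103 on the minus strand for Apln.
Esm1: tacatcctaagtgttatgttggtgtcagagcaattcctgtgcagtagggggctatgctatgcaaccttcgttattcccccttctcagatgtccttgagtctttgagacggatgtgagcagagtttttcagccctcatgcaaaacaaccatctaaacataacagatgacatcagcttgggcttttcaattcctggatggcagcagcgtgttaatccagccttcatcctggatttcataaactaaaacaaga
Emcn: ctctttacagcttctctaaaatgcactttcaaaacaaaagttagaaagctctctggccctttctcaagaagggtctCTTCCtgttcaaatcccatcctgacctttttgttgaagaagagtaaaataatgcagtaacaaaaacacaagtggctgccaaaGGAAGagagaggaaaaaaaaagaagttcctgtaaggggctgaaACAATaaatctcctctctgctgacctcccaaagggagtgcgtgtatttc
Eng: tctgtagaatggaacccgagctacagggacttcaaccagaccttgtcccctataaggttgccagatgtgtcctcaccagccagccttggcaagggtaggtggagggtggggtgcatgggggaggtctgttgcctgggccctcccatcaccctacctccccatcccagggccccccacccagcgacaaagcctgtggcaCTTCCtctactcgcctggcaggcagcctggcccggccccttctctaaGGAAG
Apln: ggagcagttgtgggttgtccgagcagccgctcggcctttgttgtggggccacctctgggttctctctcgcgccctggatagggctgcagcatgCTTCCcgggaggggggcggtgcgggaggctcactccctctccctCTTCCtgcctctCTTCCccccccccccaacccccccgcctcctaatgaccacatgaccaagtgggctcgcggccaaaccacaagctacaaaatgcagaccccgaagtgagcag

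Both strands were searched for GGCGCC, a GC-rich SMAD element, for GGAAG, for the longer ETS form CCGGAA, which can overlap it, and for ACAAT. The promoter table used here matched 15 of the 36 genes, with 21 starts. GGAAG stood in 15 of the 21, ACAAT in 6, GGCGCC in 2 (both of Prox1) and CCGGAA in 0. Of all 32851 promoters of this length, 64.1% held GGAAG, 27.7% ACAAT, 9.59% GGCGCC and 12.0% CCGGAA. The Esm1 window held no match to any of them, Emcn held 2 GGAAG and 1 ACAAT, Eng 2 GGAAG, and Apln 3 GGAAG.

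**Figure D1:**
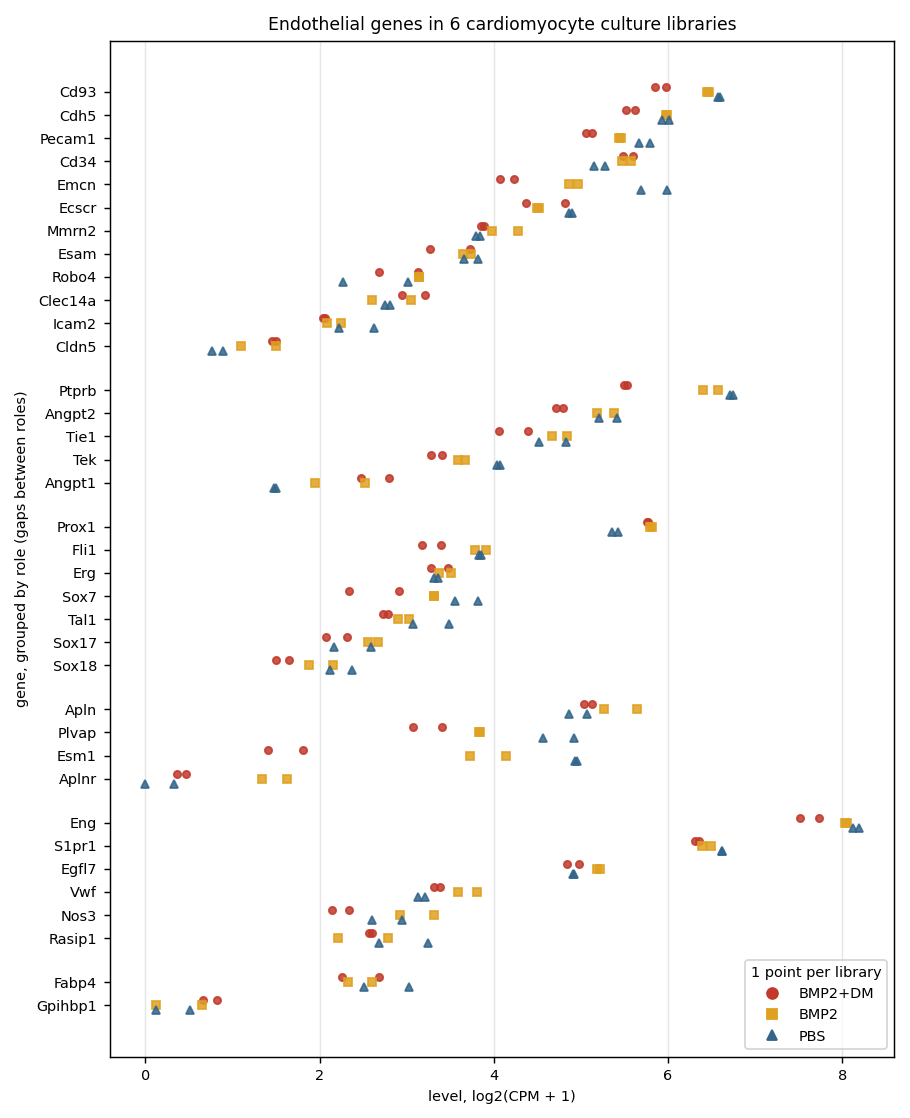
Levels of the 36 endothelial genes as log2(CPM + 1), with 1 point per library for BMP2+DM, BMP2 and PBS, grouped by role. Eng was the most abundant member, and Gpihbp1 and the BMP2+DM and PBS points of Aplnr did not exceed 0.775 CPM. The BMP2+DM points of Esm1, Emcn and Ptprb lie left of both other groups.

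Per kilobase of exon, the order of levels in PBS cultures was led by Eng, at 70.2 ± 2.20 CPM per kb (SD, n = 2). S1pr1 followed at 32.0 ± 0.129 CPM per kb, and the 2 did not overlap. Ecscr, Cdh5, Cd93 and Esm1 came next with means between 14.2 and 16.2 CPM per kb. Of these neighbours Ecscr lay above the other 3, whose levels did not differ beyond their spread. In BMP2+DM cultures the level of Esm1 was 0.994 ± 0.292 CPM per kb, while Ecscr at 13.3 ± 3.02, Cdh5 at 11.1 ± 0.535 and Cd93 at 8.89 ± 0.532 CPM per kb remained well above it.

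BMP2 against PBS asks what the ligand did to the endothelial genes. In that comparison 3 of 35 tested members rose (Aplnr, Apln and Prox1) and 3 fell (Esm1, Emcn and Plvap), by edgeR's quasi-likelihood test at an adjusted p under 0.05. Gpihbp1 was too low to be tested. Over all 14378 genes tested, 6.55% were called higher and 9.29% lower, and 15.8% in either direction against 17.1% of the members, so the number of calls was near the background. Aplnr passed the count filter through its BMP2 libraries, and without it 2 of 34 members rose and 3 fell, or 14.7%. With PBS 1 and BMP2 1 left out, 0 members rose and 1 fell (Emcn), and without PBS 1 alone or BMP2 1 alone 1 rose. The fit without both compares 1 BMP2 library with 1 PBS library, so neither group's own spread entered it. With all libraries, the median log2 fold change of the members was −0.03, against 0.00 over all genes. Both BMP2 libraries lay below both PBS libraries for 12 of the 36 members and above them for 11, where 28% of all genes were separated below and 27.9% above. BMP2 left Pecam1, Cdh5, Cd93, Eng and Erg uncalled, with log2 fold changes between −0.29 and 0.12.

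BMP2+DM against BMP2 asks what changed when dorsomorphin was added. Here 8 of 35 members fell by edgeR's test: Esm1, Nos3, Ptprb, Emcn, Cd93, Angpt2, Eng and Cdh5. None rose: 0 were called higher by edgeR or DESeq2, and 0 were higher at an unadjusted edgeR p under 0.05. The background was 4.44% of all genes called lower and 4.28% called higher, and the members' median log2 fold change was −0.36 against 0.00 over all genes. Both BMP2+DM libraries lay below both BMP2 libraries for 26 of the 36 members and above them for 1. The 26 and the median include Aplnr, which passed the count filter through its BMP2 libraries. The 1 above was Gpihbp1, which was not tested. Of all genes tested, 24.9% were separated below in this way and 25.4% above, and 8.73% were called in either direction. Without the libraries PBS 1 and BMP2 1, 3 members fell (Esm1, Ptprb and Cd93), with the median at −0.38. That fit compares 2 BMP2+DM libraries with 1 BMP2 library, which is assumed to vary like the other group. In bulk RNA, fewer endothelial cells and less RNA of these genes per cell cannot be told apart.

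BMP2+DM against PBS shares its libraries with both other comparisons. In it 13 members fell and 3 rose, or 45.7% of those tested, with 20.9% of all genes called in either direction, 11.5% lower and 9.38% higher. The median log2 fold change was −0.41 for the members, against 0.01 over all genes. Both BMP2+DM libraries lay below both PBS libraries for 20 of the 36 members and above them for 9, where 29.5% of all genes were separated below and 29% above. Without PBS 1 and BMP2 1, 8 members fell and 0 rose, with the median at −0.29. Over the 3 comparisons 19 of the 35 tested members were called at least once, and 16 were not called in any: Cldn5, Esam, Icam2, Ecscr, Clec14a, Mmrn2, Robo4, Tie1, Erg, Sox17, Sox18, Tal1, Vwf, Egfl7, Rasip1 and Fabp4.

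**Figure D2:**
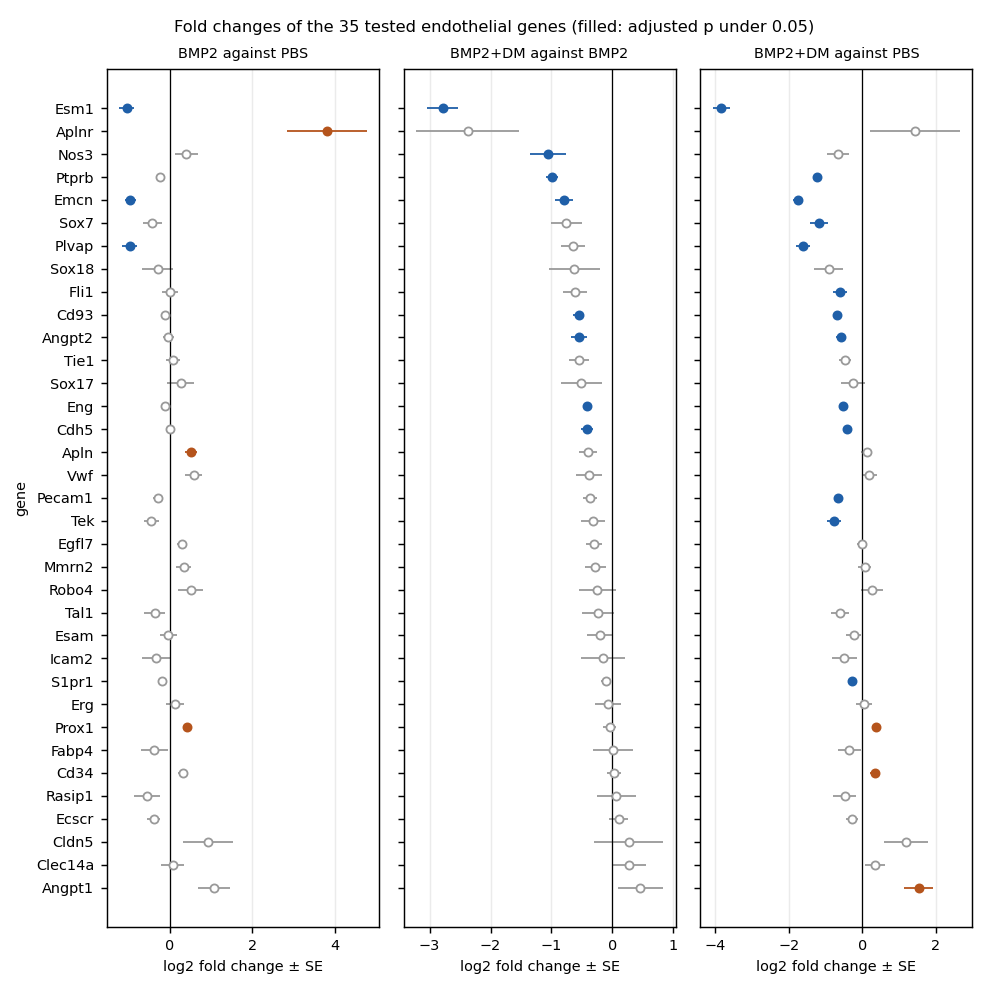
Log2 fold change ± standard error of the 35 tested members in each comparison, ordered by BMP2+DM against BMP2; filled points passed an adjusted p under 0.05 (blue lower, orange higher). In BMP2+DM against BMP2 the filled points are all on the lower side, from Cdh5 at −0.42 to Esm1 at −2.78.

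Sprouting and apelin genes held the widest range. Esm1 encodes endocan, a secreted proteoglycan of sprouting tip cells that is induced by VEGF. It lies on chromosome 13, positions 113209659 to 113218098 of GRCm38, on the plus strand. It had 2.52 and 1.65 CPM with BMP2+DM, 12.3 and 16.6 CPM with BMP2, and 30.1 and 29.4 CPM with PBS. The 3 groups did not overlap, and the raw counts behind the BMP2+DM values were 26 and 17. Its log2 fold change was −1.04 ± 0.18 in BMP2 against PBS (edgeR adjusted p = 0.000538). In BMP2+DM against BMP2 it was −2.78 ± 0.25 (edgeR adjusted p = 1.09e-06), a level 6.89-fold lower, and against PBS it was −3.83 ± 0.24. The value for BMP2 against PBS was −0.83 without PBS 1 and BMP2 1 and no longer passed (edgeR adjusted p = 0.155).

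Plvap encodes the protein of the diaphragms that close endothelial fenestrae and caveolae. It had 9.58 and 7.39 CPM with BMP2+DM, 13.2 and 13.4 CPM with BMP2, and 29.3 and 22.6 CPM with PBS. The groups were in the same order as for Esm1 and did not overlap. Its log2 fold change was −0.97 ± 0.18 in BMP2 against PBS and −1.62 ± 0.19 in BMP2+DM against PBS, both called. The step of −0.64 ± 0.20 between BMP2+DM and BMP2 did not pass (edgeR adjusted p = 0.0579); it passed without BMP2+DM 1 (−0.85). The BMP2 against PBS value was −0.76 without PBS 1 and BMP2 1, and was not called.

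Apln encodes apelin, a peptide ligand made by sprouting endothelium and by other cells, and Aplnr encodes its receptor. Aplnr had 4 and 3 counts with BMP2+DM, 23 and 16 counts with BMP2, and 0 and 3 counts with PBS. The BMP2 libraries stood apart from both others, and Aplnr reached the count filter through them, so some difference between BMP2 and the others was needed for it to be tested at all. The ratio of BMP2 to PBS, from 39 against 3 summed counts, was 15.4 with an exact 95% interval of 4.90 to 78.0. The ratio of BMP2+DM to BMP2, from 7 against 39 counts, was 0.187 with an interval of 0.0705 to 0.423. These intervals cover counting error only. The edgeR call for BMP2 against PBS (adjusted p = 0.0111) was lost without PBS 1 (log2 2.74) and without BMP2 1 (log2 3.55), where the fit with all libraries gave 3.80; without PBS 2, which leaves PBS at 0 counts, it gave 7.35, a value that depends on the prior count. The edgeR test of BMP2+DM against BMP2 did not pass (adjusted p = 0.0959).

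Apln had 34.0 and 31.8 CPM with BMP2+DM, 49.0 and 37.5 CPM with BMP2, and 32.7 and 28.03 CPM with PBS. The BMP2 libraries were above all others, with a wide gap between them. Its rise of 0.51 ± 0.14 on the log2 scale with BMP2 (edgeR adjusted p = 0.0191) was lost without BMP2 1 (0.30) or PBS 2 (0.41). The value of −0.40 ± 0.14 in BMP2+DM against BMP2 was not called with all libraries (edgeR adjusted p = 0.0995) and was called without BMP2 2 (−0.58).

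**Figure D3:**
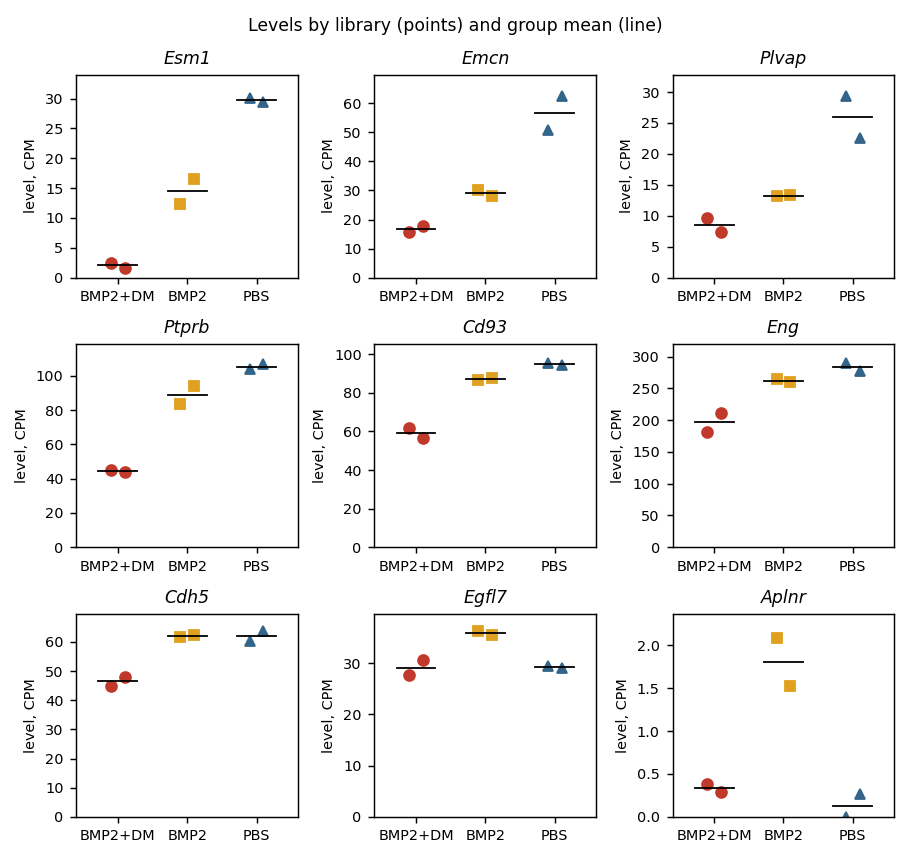
CPM of 9 members by library (points) with the group mean (line); groups run BMP2+DM, BMP2, PBS from left to right and each vertical axis starts at 0. Esm1, Emcn and Plvap are lowest with BMP2+DM and highest with PBS; Ptprb, Cd93, Eng and Cdh5 were called lower in BMP2+DM against BMP2 and not in BMP2 against PBS; Egfl7 was not called; Aplnr is highest with BMP2.

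Of the 5 angiopoietin and Tie receptor genes, 2 fell in BMP2+DM against BMP2 and 0 rose, with a median of −0.55. In that comparison 4.44% of all genes were called lower and 4.28% higher. In BMP2 against PBS 0 of the 5 were called by edgeR or DESeq2, and 3 had an unadjusted edgeR p under 0.05. Ptprb, the vascular endothelial phosphatase that acts on Tek and on VE-cadherin junctions, had 45.3 and 43.9 CPM with BMP2+DM, 83.4 and 94.2 CPM with BMP2, and 104 and 107 CPM with PBS. The BMP2+DM libraries stood far below the rest. Its log2 fold change was −0.99 ± 0.10 against BMP2 (edgeR adjusted p = 2.15e-06) and −1.24 ± 0.09 against PBS (edgeR adjusted p = 2.48e-08). In BMP2 against PBS the value was −0.25 ± 0.09 and did not pass. Both dorsomorphin calls for Ptprb held in all 13 alternative fits.

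Angpt2, an angiopoietin that endothelial cells store and release during vessel remodelling, had 26.7 and 25.2 CPM with BMP2+DM, 35.5 and 40.5 CPM with BMP2, and 35.95 and 41.8 CPM with PBS. The BMP2 and PBS libraries overlapped and the BMP2+DM libraries lay below them. The log2 fold change was −0.55 ± 0.14 against BMP2 (edgeR adjusted p = 0.015) and −0.58 ± 0.13 against PBS (edgeR adjusted p = 0.00429). The first was lost without BMP2 2 (−0.45) or BMP2+DM 2 (−0.50), and the second without PBS 2 (−0.47).

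Angpt1, the agonist of Tek, is made mainly by mural and other perivascular cells and by heart muscle. It had 4.55 and 5.93 CPM with BMP2+DM, 4.73 and 2.86 CPM with BMP2, and 1.79 and 1.83 CPM with PBS. Its direction was opposite to that of Angpt2, with PBS lowest. The rise of 1.53 ± 0.39 in BMP2+DM against PBS passed (edgeR adjusted p = 0.00821) but was lost without PBS 1 (1.51), PBS 2 (1.55) or BMP2+DM 2 (1.33). In the annotation 14.2% of its exonic bases lie under the opposite-strand model Gm17473, and with no strand setting stated it is not known how reads in the overlap were counted.

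Tek, the angiopoietin receptor, had 8.71 and 9.62 CPM with BMP2+DM, 11.7 and 11.1 CPM with BMP2, and 15.4 and 15.8 CPM with PBS. PBS was highest and BMP2+DM lowest, without overlap. Only the comparison of BMP2+DM with PBS passed, at −0.76 ± 0.19 (edgeR adjusted p = 0.00684), and it was lost without BMP2+DM 1 (−0.70). Tie1, an orphan receptor that pairs with Tek, had 17.9 ± 3.06 CPM with BMP2+DM, 26.0 ± 2.40 CPM with BMP2 and 24.7 ± 4.005 CPM with PBS (SD, n = 2). It was near the threshold in both dorsomorphin comparisons (edgeR adjusted p = 0.0543 and 0.055), and passed in the comparison with BMP2 without BMP2+DM 2 (−0.73). It passed against PBS without BMP2+DM 2 (−0.66) or PBS 2 (−0.62).

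Among the 12 adhesion and surface genes, 3 fell when dorsomorphin was added, where 4.44% of all genes did. With BMP2 1 fell, or 8.33%, below the 9.29% of all genes. Emcn encodes endomucin, a sialomucin of capillary and venous endothelium. It had 15.8 and 17.8 CPM with BMP2+DM, 30.2 and 28.1 CPM with BMP2, and 50.7 and 62.3 CPM with PBS. No 2 groups overlapped, and the descent was stepwise as for Esm1. The log2 fold change was −0.95 ± 0.13 in BMP2 against PBS (edgeR adjusted p = 6.42e-05), −0.80 ± 0.15 in BMP2+DM against BMP2 (edgeR adjusted p = 0.00195) and −1.75 ± 0.14 in BMP2+DM against PBS. Without PBS 1 and BMP2 1 the second value was −0.74 and was not called (edgeR adjusted p = 0.083).

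Cd93, a surface glycoprotein of endothelium and myeloid cells that binds the matrix protein Mmrn2, had 61.9 and 56.8 CPM with BMP2+DM, 86.6 and 87.8 CPM with BMP2, and 95.6 and 94.2 CPM with PBS. It was lowest with BMP2+DM, at −0.55 ± 0.09 against BMP2 (edgeR adjusted p = 0.00054) and −0.68 ± 0.09 against PBS. Both calls held in all 13 alternative fits. Mmrn2 itself had 13.6 ± 0.241 CPM with BMP2+DM, 16.5 ± 2.54 CPM with BMP2 and 13.1 ± 0.322 CPM with PBS (SD, n = 2) and was not called.

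Cdh5 encodes VE-cadherin, the adhesive protein of endothelial adherens junctions. It had 44.9 and 48.1 CPM with BMP2+DM, 61.7 and 62.3 CPM with BMP2, and 60.2 and 63.6 CPM with PBS. The BMP2 and PBS libraries overlapped, and BMP2+DM lay below both. The log2 fold change was −0.42 ± 0.10 against BMP2 (edgeR adjusted p = 0.0152) and −0.41 ± 0.10 against PBS (edgeR adjusted p = 0.00704). The first call was lost without BMP2 1 (−0.42), BMP2 2 (−0.41) or BMP2+DM 1 (−0.37), and the second without PBS 2 (−0.37) or BMP2+DM 1 (−0.37), all with little change in size.

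Pecam1 encodes CD31, an adhesion molecule of endothelium, platelets and leukocytes. It had 34.0 and 32.4 CPM with BMP2+DM, 42.3 and 43.2 CPM with BMP2, and 54.6 and 49.7 CPM with PBS. The groups did not overlap and followed the order of Emcn, with smaller steps. Only BMP2+DM against PBS passed, at −0.65 ± 0.11 (edgeR adjusted p = 0.000425), and it held in all 13 alternative fits. The steps of −0.29 ± 0.11 with BMP2 and −0.36 ± 0.12 with dorsomorphin did not pass.

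Cd34, a sialomucin of endothelium and of fibroblast and blood progenitors, went the other way. It had 43.9 and 47.3 CPM with BMP2+DM, 43.4 and 46.5 CPM with BMP2, and 34.4 and 37.9 CPM with PBS. The PBS libraries were lowest. Its rise of 0.34 ± 0.12 in BMP2+DM against PBS was at the threshold (edgeR adjusted p = 0.0499) and was lost in 12 of 13 alternative fits, which gave 0.27 to 0.40. These 12 include each fit without 1 library: 0.27 without PBS 1, 0.40 without PBS 2, 0.34 without BMP2 1, 0.33 without BMP2 2, 0.39 without BMP2+DM 1 and 0.28 without BMP2+DM 2.

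The other adhesion genes were not called. The tight junction gene Cldn5 had 1.79 ± 0.0639 CPM with BMP2+DM, 1.48 ± 0.476 CPM with BMP2 and 0.777 ± 0.114 CPM with PBS (SD, n = 2), from 8 to 20 counts per library. Ecscr, which encodes an endothelial chemotaxis regulator, had 27.1 and 19.6 CPM in the BMP2+DM libraries, a spread as wide as any difference between groups, and passed against PBS only without BMP2+DM 1 (−0.54). Esam and Icam2, both adhesion molecules, Clec14a, a lectin-like receptor, and Robo4, a guidance receptor, had log2 fold changes between −0.25 and 0.28 in BMP2+DM against BMP2.

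Of 7 transcription factor genes, 0 were called in BMP2+DM against BMP2 by edgeR or DESeq2, 2 had an unadjusted edgeR p under 0.05, and 7 of 7 had negative values. Their median was −0.51, against 0.00 over all genes. Erg, the ETS factor that maintains endothelial identity, had 8.71 and 10.1 CPM with BMP2+DM, 9.37 and 10.4 CPM with BMP2, and 8.93 and 9.23 CPM with PBS. The BMP2+DM libraries overlapped both other groups, while both BMP2 libraries lay slightly above both PBS libraries. The log2 fold change was −0.07 ± 0.21 in BMP2+DM against BMP2 and 0.12 ± 0.21 in BMP2 against PBS, and neither passed. Fli1, a related ETS factor also found in blood cells, had 9.49 and 8.07 CPM with BMP2+DM, 12.7 and 14.0 CPM with BMP2, and 13.4 and 13.2 CPM with PBS.

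The BMP2+DM libraries were the lowest for Fli1. Its fall of 0.60 ± 0.19 against PBS passed (edgeR adjusted p = 0.0348) but not with DESeq2 (adjusted p = 0.129), nor without PBS 1 (−0.59), PBS 2 (−0.61), BMP2+DM 1 (−0.73) or BMP2+DM 2 (−0.49). Sox7, a SOXF factor, had 4.07 and 6.51 CPM with BMP2+DM, 8.91 and 8.97 CPM with BMP2, and 13.1 and 10.8 CPM with PBS. The groups were apart, and BMP2+DM against PBS passed at −1.18 ± 0.25 (edgeR adjusted p = 0.00223). That call was lost without PBS 1 and BMP2 1 (−1.03). The value of −0.76 ± 0.26 against BMP2 did not pass, and passed without BMP2+DM 2 (−1.13). Sox17, Sox18 and Tal1, a blood and endothelial factor, were at 1.84 to 10.2 CPM and were not called. Other models overlap 16.8% of the exonic bases of Sox17, with Gm37587 on the opposite strand the largest.

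Prox1 is the master factor of lymphatic endothelium and is also expressed by heart muscle cells. It had 53.2 and 53.6 CPM with BMP2+DM, 54.6 and 55.4 CPM with BMP2, and 39.95 and 42.1 CPM with PBS. Both groups with BMP2 stood above PBS and differed little from each other. It rose by 0.42 ± 0.11 with BMP2 (edgeR adjusted p = 0.00945) and by 0.38 ± 0.11 in BMP2+DM against PBS (edgeR adjusted p = 0.0151). The first call was lost without PBS 1 (0.39) or BMP2 2 (0.41), and the second without PBS 1 (0.34), PBS 2 (0.42), BMP2+DM 1 (0.38) or BMP2+DM 2 (0.38). Of the lymphatic markers other than those near 0, Flt4 had 5.72 ± 0.397 CPM with BMP2+DM, 6.74 ± 0.756 CPM with BMP2 and 9.17 ± 0.331 CPM with PBS (SD, n = 2) and was not called. Pdpn, the podoplanin gene, which mesothelial and stromal cells also express, rose by 0.40 ± 0.10 in BMP2+DM against BMP2 (edgeR adjusted p = 0.013).

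Of 6 genes of vascular signalling, 2 fell in BMP2+DM against BMP2, where 4.44% of all genes did. In BMP2 against PBS 0 were called by edgeR or DESeq2, and 3 had an unadjusted edgeR p under 0.05. Eng encodes endoglin, the BMP co-receptor of endothelium, which fibroblasts and mural cells also make. It had 182 and 211 CPM with BMP2+DM, 265 and 259.6 CPM with BMP2, and 291 and 278 CPM with PBS. The BMP2+DM libraries lay below all others. The log2 fold change was −0.42 ± 0.07 against BMP2 (edgeR adjusted p = 0.000448) and −0.53 ± 0.07 against PBS (edgeR adjusted p = 9.62e-06). Without PBS 1 and BMP2 1 the first was −0.40 and not called (edgeR adjusted p = 0.0832).

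Nos3, endothelial nitric oxide synthase, had 4.07 and 3.40 CPM with BMP2+DM, 8.91 and 6.59 CPM with BMP2, and 5.07 and 6.70 CPM with PBS. The BMP2+DM libraries were lowest and the BMP2 and PBS libraries overlapped. It fell by 1.05 ± 0.30 in BMP2+DM against BMP2 (edgeR adjusted p = 0.0328). The call was lost with DESeq2 (adjusted p = 0.103), without BMP2 1 (−0.82) and without BMP2+DM 1 (−1.19) or 2 (−0.93). In the annotation 32.3% of its exonic bases are shared with Gm15587 on the opposite strand.

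S1pr1, a receptor for sphingosine 1-phosphate that heart muscle also carries, had 80.8 and 78.2 CPM with BMP2+DM, 82.8 and 88.7 CPM with BMP2, and 97.6 and 97.1 CPM with PBS. PBS was highest, and the fall of 0.29 ± 0.08 in BMP2+DM against PBS passed (edgeR adjusted p = 0.0189). It was lost without PBS 1 (−0.29), PBS 2 (−0.30) or BMP2+DM 2 (−0.27). Egfl7, a secreted vessel-organising protein, had 27.6 and 30.6 CPM with BMP2+DM, 36.3 and 35.4 CPM with BMP2, and 29.4 and 29.0 CPM with PBS. It was highest with BMP2 but was not called in any comparison, with log2 fold changes of 0.30 ± 0.13 for BMP2 and −0.30 ± 0.13 for dorsomorphin.

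Vwf, the clotting factor carrier of endothelial storage granules, had the same shape: 9.39 and 8.94 CPM with BMP2+DM, 11.0 and 13.0 CPM with BMP2, and 7.79 and 8.27 CPM with PBS. Its values did not pass (edgeR adjusted p = 0.0689 in BMP2 against PBS). Rasip1, a regulator of vessel lumen formation, was at 3.64 to 8.50 CPM and was not called; 42.9% of its exonic bases are shared with other models, mostly Izumo1. Of the capillary genes that handle lipid, Fabp4, a fatty acid binding protein that fat cells also make, was at 3.79 to 7.14 CPM and was not called. Gpihbp1, which anchors lipoprotein lipase on capillaries, had 8 and 6 counts with BMP2+DM, 1 and 6 counts with BMP2, and 6 and 1 counts with PBS.

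The members did not move by one common factor. Shares were taken of the summed level of the 26 members classed as largely restricted to endothelium among heart cells. This set includes Pecam1 and Cd93, which blood cells also express, and Cd93 made up 15.4% to 16.5% of the sum in each library. Esm1 made up 0.670% and 0.447% with BMP2+DM, 2.34% and 3.06% with BMP2, and 4.84% and 4.81% with PBS. Ptprb made up 12.1% and 11.9% with BMP2+DM, 15.9% and 17.4% with BMP2, and 16.8% and 17.4% with PBS. Cdh5 made up 12.0% and 13.0% with BMP2+DM, 11.8% and 11.5% with BMP2, and 9.69% and 10.4% with PBS. Within these libraries, then, Esm1 and Ptprb took a smaller part of the sum with BMP2+DM than with PBS, and Cdh5 a larger one. The share of Egfl7 was also larger: 7.35% and 8.27% with BMP2+DM, 6.91% and 6.53% with BMP2, and 4.73% and 4.74% with PBS. Such shares show unequal change and do not show that any gene stayed the same.

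The sum itself was 376 and 370 CPM with BMP2+DM, 525 and 542 CPM with BMP2, and 621 and 612 CPM with PBS. Of the 25 restricted members tested, 6 fell and 0 rose in BMP2+DM against BMP2 (median −0.39), or 24% called, where 8.73% of all genes were. In BMP2 against PBS 3 fell and 1 rose (median −0.04), or 16%, near the 15.8% of all genes. Without Aplnr the counts there were 3 and 0 of 24 (median −0.08), or 12.5%. The 10 members that other heart cells also make were Eng, S1pr1, Prox1, Cd34, Angpt1, Angpt2, Apln, Fli1, Tal1 and Fabp4. They summed to 446 and 471 CPM with BMP2+DM, 559 and 556 CPM with BMP2, and 559 and 557 CPM with PBS. Of them 2 fell in BMP2+DM against BMP2 (median −0.17), or 20% called, where 8.73% of all genes were. The difference between these groups of members was not tested.

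A further list of 40 endothelial genes that are not among the members gave 35 tested. It too was chosen with earlier results of these data known, so it describes the data and is not independent support. With dorsomorphin added, 12 fell and 2 rose against BMP2 (median −0.46), or 40% called, where 8.73% of all genes were. In BMP2 against PBS 6 fell and 1 rose (median −0.22), or 20%, where 15.8% of all genes were called. The 4 with the smallest p in the dorsomorphin comparison all fell. Unc5b, a netrin receptor gene of tip cells that other cells also express, was at 192 ± 3.34 CPM with BMP2+DM, 525 ± 3.07 CPM with BMP2 and 534 ± 15.9 CPM with PBS (SD, n = 2). Tm4sf1, a membrane protein gene of endothelial and mesenchymal cells, was at 100.4 ± 2.002 CPM with BMP2+DM, 145 ± 0.988 CPM with BMP2 and 347 ± 4.78 CPM with PBS. Unc5b was high in both groups without dorsomorphin, whereas Tm4sf1 fell with BMP2 (−1.26 ± 0.06) and fell again.

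Selp, the P-selectin gene of endothelium and platelets, was at 28.7 ± 3.90 CPM with BMP2+DM, 57.3 ± 4.61 CPM with BMP2 and 78.8 ± 2.03 CPM with PBS (SD, n = 2). The VEGF receptor gene Kdr was at 8.92 ± 1.12 CPM with BMP2+DM, 23.7 ± 6.03 CPM with BMP2 and 15.3 ± 0.244 CPM with PBS, with a value of −1.41 ± 0.20 in BMP2+DM against BMP2. The 2 genes of the list that rose there, named after their values were seen, were Acvrl1, which encodes ALK1, and Bmx, a kinase gene of arterial endothelium. Acvrl1 was at 48.1 ± 4.10 CPM with BMP2+DM, 35.9 ± 0.543 CPM with BMP2 and 47.3 ± 3.63 CPM with PBS (SD, n = 2). It rose by 0.42 ± 0.12 in BMP2+DM against BMP2 (edgeR adjusted p = 0.0334) and fell by 0.40 ± 0.12 in BMP2 against PBS (edgeR adjusted p = 0.0266). Bmx rose by 1.13 ± 0.34 in BMP2+DM against BMP2 (edgeR adjusted p = 0.046), and DESeq2 made none of these calls. Over the list of other endothelial genes DESeq2 also made fewer calls than edgeR. It called 9 lower and 0 higher in BMP2+DM against BMP2, and 5 lower and 0 higher in BMP2 against PBS. Of 10 BMP-SMAD targets known in endothelium, 7 fell and 0 rose when dorsomorphin was added (median −1.26), where 4.44% of all genes fell. Smad6, Id3, Smad7 and Id2 were first by p. In BMP2 against PBS 3 of the 10 rose and 0 fell (median 0.09), and DESeq2 called 1. In BMP2+DM against PBS 7 fell and 0 rose (median −0.93), so most of these genes lay below PBS and not only below BMP2. Smad6, an inhibitor of BMP signalling that BMP induces, had 44.8 and 52.6 CPM with BMP2+DM, 171 and 201 CPM with BMP2, and 141 and 163 CPM with PBS.

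**Figure D4:**
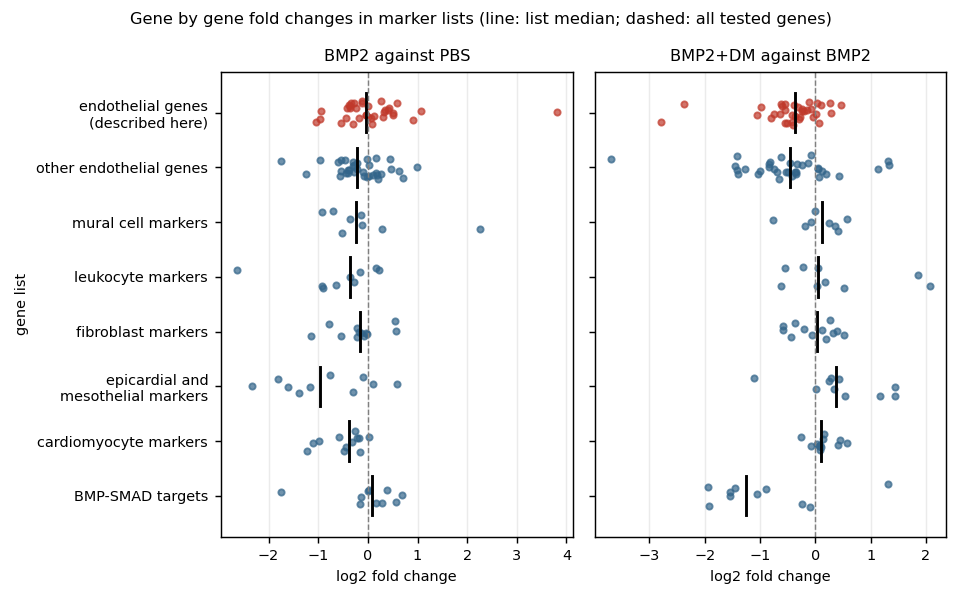
Log2 fold changes of single genes in 8 lists, for BMP2 against PBS and BMP2+DM against BMP2; the solid line is the list median and the dashed line the median of all tested genes. In BMP2+DM against BMP2 the medians of both endothelial lists (−0.36 and −0.46) and of the BMP-SMAD targets (−1.26) lie below 0, and those of the mural, leukocyte, fibroblast, epicardial and cardiomyocyte markers lie between 0.02 and 0.37. The platelet and endocardial lists are not drawn, and their medians there were −0.47 over 2 genes and −0.30 over 6. All lists were chosen with earlier results of these data known.

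Markers of other cells also moved, and their part in the endothelial values was not tested. In BMP2 against PBS, cardiomyocyte markers fell in 11 of 12, epicardial and mesothelial ones in 6 of 10, fibroblast ones in 5 of 12 and mural ones in 3 of 8 tested. The share of all genes that fell there was 9.29%. Shares called depend on abundance as well as on the size of change. In that comparison Myh6 was called at −0.18 ± 0.03, while Tek at −0.45 ± 0.18 was not. In BMP2+DM against PBS, 9 of 12 cardiomyocyte, 9 of 12 fibroblast, 5 of 8 tested mural and 6 of 10 epicardial markers were called in either direction. Each was a larger share than the 45.7% of the endothelial members and the 20.9% of all genes. Called lower there were 9 cardiomyocyte, 6 fibroblast, 3 mural and 5 epicardial markers, and called higher 0, 3, 2 and 1. In the same order the list medians were −0.24, −0.25, −0.12 and −0.70, against −0.41 for the endothelial members. Of 9 leukocyte markers tested, 2 were lower and 0 higher, with a median of −0.47. A fall against PBS was therefore not particular to endothelial genes. Cardiomyocyte markers rose in 4 of 12 with 0 fallen in BMP2+DM against BMP2, where 4.28% of all genes rose and 4.44% fell. They summed to 30644 and 30966 CPM with BMP2+DM, 28067 and 27868 CPM with BMP2, and 36354 and 35946 CPM with PBS. Fibroblast markers rose in 3 of 12 and fell in 4, and summed to 10799 and 11311 CPM with BMP2+DM, 11670 and 11935 CPM with BMP2, and 11833 and 12538 CPM with PBS. Mural markers rose in 2 of 8 tested and fell in 1. They summed to 598 and 633 CPM with BMP2+DM, 612 and 625 CPM with BMP2, and 791 and 801 CPM with PBS. The 1 that fell was Mcam, which endothelial cells also express. Which cells its RNA came from was not tested.

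Pecam1, Cd93, Fli1 and Cd34 are also expressed by blood cells. Leukocyte markers fell in 1 of 9 tested in BMP2+DM against BMP2, where 4.44% of all genes fell. They summed to 71.0 and 68.7 CPM with BMP2+DM, 73.9 and 73.6 CPM with BMP2, and 102 and 96.6 CPM with PBS. The 1 that fell was Csf1r, a receptor gene of macrophages, at 12.1 ± 0.443 CPM with BMP2+DM, 18.8 ± 0.185 CPM with BMP2 and 16.9 ± 0.179 CPM with PBS (SD, n = 2), with a log2 fold change of −0.63 ± 0.17 against BMP2 (edgeR adjusted p = 0.0246). Lyz2, a lysozyme gene of myeloid cells, was at 38.9 ± 1.75 CPM with BMP2+DM, 37.5 ± 3.65 CPM with BMP2 and 58.5 ± 2.40 CPM with PBS, while Ptprc, which encodes CD45, did not exceed 0.522 CPM in any library. For the epicardial list 3 of 10 genes rose and 1 fell, with a sum of 248 and 235 CPM with BMP2+DM, 205 and 212 CPM with BMP2, and 272 and 288 CPM with PBS. Among rarer types, 0 of 2 tested platelet markers and 0 of 6 tested endocardial markers were called in BMP2+DM against BMP2 by edgeR or DESeq2. At an unadjusted edgeR p under 0.05 there were 0 and 2, and the medians were −0.47 and −0.30. In BMP2 against PBS, edgeR called the platelet gene Pf4 (−0.95 ± 0.24) and the endocardial genes Npr3 (−0.61 ± 0.17) and Nrg1 (−0.50 ± 0.15) lower. DESeq2 did not call the endocardial 2. In BMP2+DM against PBS, Pf4 (−1.17 ± 0.25) and Nrg1 (−1.02 ± 0.15) were called lower. Of the erythroid markers none was tested, and Hba-a2 was at 0 in every library.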

How the data were processed

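The authors deposited 1 table of raw counts per library, made from polyadenylated RNA; per the submitters' processing notes the tools were FastQC, Trimmomatic, STAR, HTSeq and DESeq2 with the mm10 build. The sources used here name no version, gene annotation or strand setting. Summary lines of the counting tool, 53.8% to 54.2% of each file's total, were left out.

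Counts were fitted as deposited with edgeR 4.0.16 (R 4.3.3; TMM, filterByExpr with a minimum count of 10 and total of 15, quasi-likelihood test) over all 6 libraries with 3 residual degrees of freedom. Calls are at a Benjamini-Hochberg adjusted p under 0.05 over 14378 of 32245 symbols, and the script was tested on simulated data. DESeq2 1.42.0, RLE scaling, no filter, a replicate block, fits of the groups compared only, removal of ribosomal-repeat models and left-out libraries were alternatives. CPM used the TMM-adjusted library sizes, and standard errors were derived from the fold change and its F statistic (|log2 fold change| over √F). Coordinates, exon lengths and overlaps came from GENCODE vM21 (GRCm38), with all 36 symbols matched.

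Members and lists were chosen with earlier results of these data known. Every member was accounted for. Values in each library were given for called and abundant members. Of the other endothelial and BMP-SMAD lists the 4 genes with the smallest p in BMP2+DM against BMP2 were named. Acvrl1, Bmx, Csf1r, Lyz2, Flt4, Pdpn, Mcam, Pf4, Npr3, Nrg1 and low markers were added after their values were seen. Whether replicate numbers pair the samples is not stated. Same-number deviations correlated at 0.0248 (BMP2 and PBS), −0.0227 (BMP2+DM and PBS) and −0.0376 (BMP2+DM and BMP2) over genes. Such values cannot show whether same-number libraries share a culture or preparation. PBS 1 and BMP2 1 shared high ribosomal-repeat reads, and BMP2+DM 1 did not. Depth was 10106667 to 14366042 counts per library.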

Additional observations from a re-analysis of the deposited data

How the results depend on the processing

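Of 30 calls of members, 11 held in all 13 alternatives and 19 were lost in at least 1. Of these 19, all but Angpt2 in BMP2+DM against PBS were lost without PBS 1 and BMP2 1. That holds also where only single libraries are named above. With the ribosomal-repeat models removed and all 6 libraries kept, 3 members were called lower and 3 higher in BMP2 against PBS. That fit gave 9 lower and 0 higher in BMP2+DM against BMP2, and 13 lower and 3 higher in BMP2+DM against PBS. Without PBS 1 and BMP2 1, members called higher were 0 in BMP2 against PBS and 0 in BMP2+DM against PBS, and those called lower were 3 in BMP2+DM against BMP2, 8 in BMP2+DM against PBS and 1 in BMP2 against PBS. The median for BMP2+DM against PBS was then −0.29. Fewer samples entered these fits, with 1 BMP2 library and 1 PBS library, so lost calls do not by themselves show a smaller change. Leaving out 1 library gave 1 to 3 higher in BMP2 against PBS, 0 to 2 higher in BMP2+DM against PBS, a median of −0.10 to −0.0055 for BMP2 against PBS and −0.47 to −0.29 for BMP2+DM against PBS. The replicate block, whose numbers are not known to pair the samples, gave 9 lower in BMP2+DM against BMP2, 13 lower and 2 higher in BMP2+DM against PBS, and 3 lower and 3 higher in BMP2 against PBS. Values that changed sign were not called in either fit, and the cause was not tested. With PBS 1 and BMP2 1 left out these were Cd34 (−0.029) and Rasip1 (−0.25) for BMP2+DM against BMP2, Sox17 (0.042) and Egfl7 (0.0039) for BMP2+DM against PBS, and Cdh5 (−0.030), Nos3 (−0.026) and Rasip1 (0.13) for BMP2 against PBS. Leaving out 1 library gave log2 fold changes in BMP2+DM against BMP2 of −0.019 to 0.64 for Cldn5, −0.47 to 0.031 for Esam, −0.032 to 0.073 for Cd34, −0.15 to 0.32 for Ecscr, −0.18 to 0.030 for Erg, −0.24 to 0.46 for Rasip1 and −0.27 to 0.25 for Fabp4. Leaving out 1 library gave log2 fold changes in BMP2+DM against PBS of −0.10 to 0.78 for Robo4, −0.058 to 0.15 for Erg, −0.48 to 0.042 for Sox17 and −0.080 to 0.065 for Egfl7. Leaving out 1 library gave log2 fold changes in BMP2 against PBS of −0.038 to 0.045 for Cdh5, −0.13 to 0.048 for Esam, −0.21 to 0.30 for Clec14a, −0.14 to 0.079 for Angpt2, −0.078 to 0.25 for Tie1 and −0.068 to 0.074 for Fli1. With 2 libraries a group and low counts for Aplnr, Gpihbp1 and Cldn5, small differences were not detectable at this depth.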
